A study of Mus musculus with 2 samples.

Results

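The m6A sites of the neurexin genes Nrxn2 and Nrxn3 were described along their transcripts in the mouse cerebellum and cerebrum. All sites on the gene's strand within its interval in GENCODE mouse release M21 on GRCm38 were taken, and they numbered 741 of the 219409 sites of both libraries. Nrxn2 (ENSMUSG00000033768.17) spans chr19:6418731-6544169 on the plus strand, and Nrxn3 (ENSMUSG00000066392.11) spans chr12:88722876-90334935 on the plus strand. Both genes were chosen by their site calls in these same libraries, so their numbers of sites and their places among other genes are given as a description, without a test. In both libraries most exonic sites of Nrxn2 lay in the coding sequence, while those of Nrxn3 also lay in the 3′ UTR and in the beta first exon, and Nrxn3 carried more intronic than exonic sites.

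Neurexins are presynaptic cell adhesion molecules that bind postsynaptic and secreted partners such as neuroligins, LRRTM proteins and cerebellins across the synaptic cleft, and that help to organise synapses. Each neurexin gene has an upstream promoter for the long alpha form and an internal promoter for the short beta form, and its transcripts are spliced in many alternative ways. The m6A mark is laid down on adenosines within the DRACH motif, whose central A is methylated (D stands for any base but C, R for a purine and H for any base but G), and in mRNA it is known to lie mainly in long internal exons and in last exons around the stop codon.

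The sites came from GLORI, which deaminates unmethylated adenosines so that they are read as G while m6A is still read as A. There was 1 poly(A)+ RNA library of the cerebellum and 1 of the cerebrum, both from a female P0 F1r mouse, the hybrid offspring of a C57 (C57BL/6J) mother and a PWK (PWK/PhJ) father. Both libraries had the same GLORI treatment, and the study's methods describe their source as a single animal, so the spread between animals was not measured. The files list positions only, with no methylation rate, read count or allele, and the depth of each call is therefore unknown. A position missing from a list may have been unmethylated, not expressed or too thinly read, and these cannot be told apart, nor can fewer cells of a type and less RNA per cell. With 1 library per tissue no test between the tissues was possible, and every interval below is a 95% Wilson interval that covers counting error over sites only.

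The cerebellum library held 79355 sites and the cerebrum library 188295, of which 48241 were in both, or 60.8% and 25.6%. Exonic DRACH sites on genes that mark the tissues followed the labels for most genes. All 12 cerebrum marker genes had at least 1 in their own library and 5 had any in the other. Of 9 cerebellum marker genes, 7 had one in the cerebellum library and 3 (Zic1, Zic4 and Lhx1) in the cerebrum library, while Pax2 and Atoh1 had no site in either. By number, all 12 cerebrum markers had more in the cerebrum library. Of the cerebellum markers, 5 had more in the cerebellum library and 3 were equal, among them Zic1 with 14 in each. Zic4 went against its label, with 4 in the cerebellum and 13 in the cerebrum.

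Nrxn2 carried 38 cerebellum and 81 cerebrum sites, and 32 positions were shared. The shared positions were 84.2% of the cerebellum list (69.6% to 92.6%) and 39.5% of the cerebrum list (29.6% to 50.4%). Nrxn3 carried 158 and 549 sites, of which 53 were shared, or 33.5% (26.7% to 41.2%) and 9.65% (7.46% to 12.4%). Introns made most of this difference between the genes. On exons of complete coding transcripts, whose sites are called exonic below, the cerebellum library listed 25 sites in Nrxn2 and 50 in Nrxn3, and the cerebrum library 44 and 74. There, 92% of the Nrxn2 cerebellum sites (75% to 97.8%) and 86% of the Nrxn3 cerebellum sites (73.8% to 93%) recurred in the cerebrum, compared with 72.8% over all coding genes. Among exonic DRACH sites alone, the shares were 95.7% (79% to 99.2%) for Nrxn2 and 86.4% (73.3% to 93.6%) for Nrxn3. Over all coding genes this share was 83.6%, within both intervals.

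The transcript regions of the sites differed between the genes. In Nrxn2, 22 of the 25 exonic cerebellum sites lay in the coding sequence (CDS), which was 88% (70% to 95.8%), with 2 in the 3′ UTR and 1 in the 5′ UTR. In the cerebrum the counts were 35, 7 and 2, with 79.5% in the CDS (65.5% to 88.8%). In Nrxn3 the cerebellum sites were spread over the 3′ UTR with 23, the CDS with 16 and the 5′ UTR with 11. The CDS share was 32% (20.8% to 45.8%) there and 43.2% (32.6% to 54.6%) in the cerebrum, where 32 sites lay in the CDS, 25 in the 3′ UTR and 17 in the 5′ UTR. The intervals of the CDS share did not overlap between the genes in either library. Over all coding genes 40.8% of the exonic cerebellum sites and 42.9% of the exonic cerebrum sites were in the CDS. Of the DRACH adenosines of the longest coding isoforms, 83 of 100 in Nrxn2 and 107 of 185 in Nrxn3 lie in the CDS. Of the Nrxn2 ones, 24.1% in the CDS and 16.7% in the 3′ UTR were called in the cerebellum. In the cerebrum these shares were 30.1% and 33.3%, with overlapping intervals in each library. For Nrxn3 they were 14% and 28.8% in the cerebellum, and 17.8% and 26% in the cerebrum. The 5′ UTR held 2.84% and 3.26% of the exonic sites of all coding genes, against 22% (12.8% to 35.2%) and 23% (14.9% to 33.7%) of those of Nrxn3. Of these Nrxn3 5′ UTR sites, 10 of the 11 in the cerebellum and 14 of the 17 in the cerebrum lay in the beta first exon. In the 5′ UTR of its longest coding isoform, 0 and 1 of 5 DRACH adenosines were called.

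**Figure D1:**
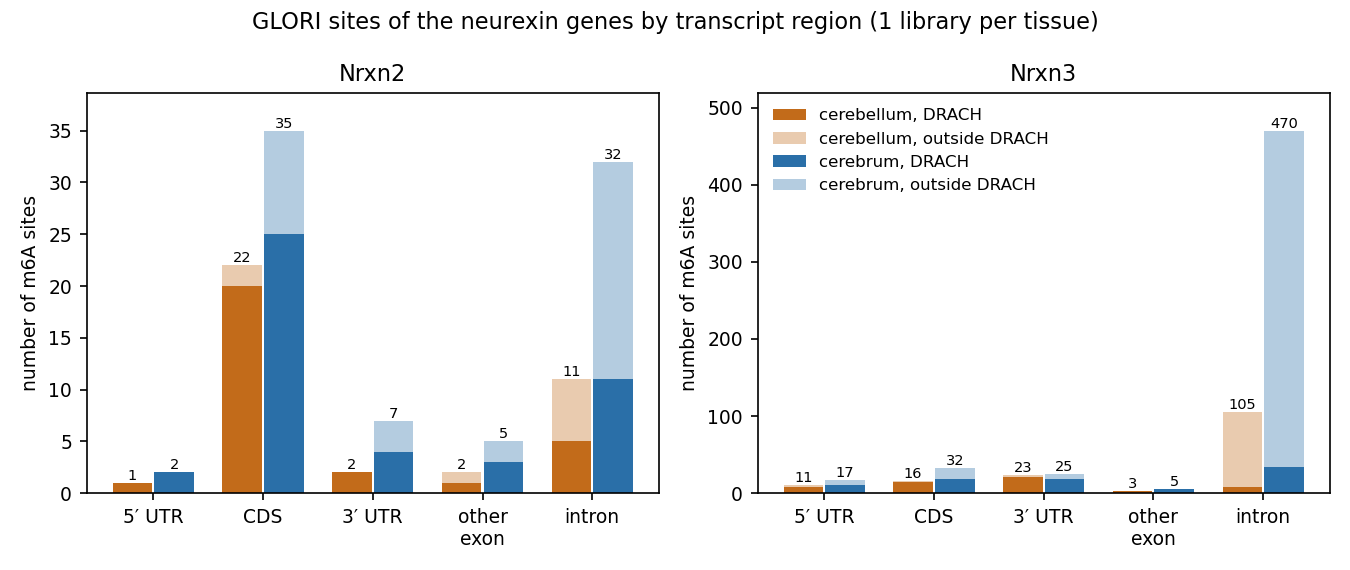
Number of m6A sites (vertical axis, different scales) by transcript region for Nrxn2 and Nrxn3 in the cerebellum and cerebrum library, with DRACH sites in full colour and sites outside DRACH in pale colour; "other exon" means exons of transcripts without a complete coding sequence. The CDS holds most exonic sites of Nrxn2, and the 470 intronic cerebrum sites of Nrxn3, nearly all pale, exceed all its other classes.

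The longest coding isoforms, Nrxn2-205 with 23 exons and 6667 nt and Nrxn3-205 with 20 exons and 7922 nt, are alpha forms and served as the reference for positions. They hold 100 and 185 adenosines in DRACH. Of the 100 in Nrxn2, the cerebellum library called 22% (15% to 31.1%) and the cerebrum library 29% (21% to 38.5%). Of the 185 in Nrxn3, 36 were called from the cerebellum (19.5%, 14.4% to 25.8%) and 39 from the cerebrum (21.1%, 15.8% to 27.5%). Among coding genes with a site and at least 50 DRACH adenosines, the cerebellum library called a median of 3.33% and the cerebrum library one of 4.55%. Nrxn2 ranked 175 and Nrxn3 275 of 6624 such genes in the cerebellum, and 217 and 627 of 8649 in the cerebrum. The intervals of the neurexins overlapped each other in both libraries.

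The sites were concentrated in few exons. The last exon of Nrxn2 held 21 of the 44 sites on the isoform (47.7%) and 27% of its DRACH adenosines. The last exon of Nrxn3 held 42 of 65 (64.6%) and 47.6% of the DRACH adenosines. Of the last-exon DRACH adenosines of Nrxn2, the cerebellum library called 44.4% (27.6% to 62.7%) and the cerebrum library 59.3% (40.7% to 75.5%), and of those of Nrxn3 31.8% (23% to 42.1%) and 30.7% (22% to 41%), with 7.21% and 9.62% over all coding genes. In internal exons of at most 200 nt fewer were called. For Nrxn2 these were 1 of 33 DRACH adenosines in the cerebellum (3.03%, 0.537% to 15.3%) and 3 of 33 in the cerebrum (9.09%, 3.14% to 23.6%). For Nrxn3 none of 39 was called in either library, where the interval reached up to 8.97%. All coding genes together stood at 0.186% and 0.46% in such exons, below the Nrxn2 intervals and within those of Nrxn3. In longer internal exons the share was 25% (13.8% to 41.1%) and 27.8% (15.8% to 44%) for Nrxn2 and 11.9% (5.19% to 25%) in each library for Nrxn3. Over all coding genes it was 8.83% and 11.7%, within the Nrxn3 interval. Outside the last exon, DRACH adenosines within 100 nt of an exon junction were called at 12.5% for Nrxn2 in the cerebrum (6.19% to 23.6%) and at 1.67% for Nrxn3 (0.295% to 8.86%), and those farther away at 35.3% (17.3% to 58.7%) and 29.7% (17.5% to 45.8%). All coding genes stood at 1.13% near a junction and at 14.6% farther away in the cerebrum.

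**Figure D2:**
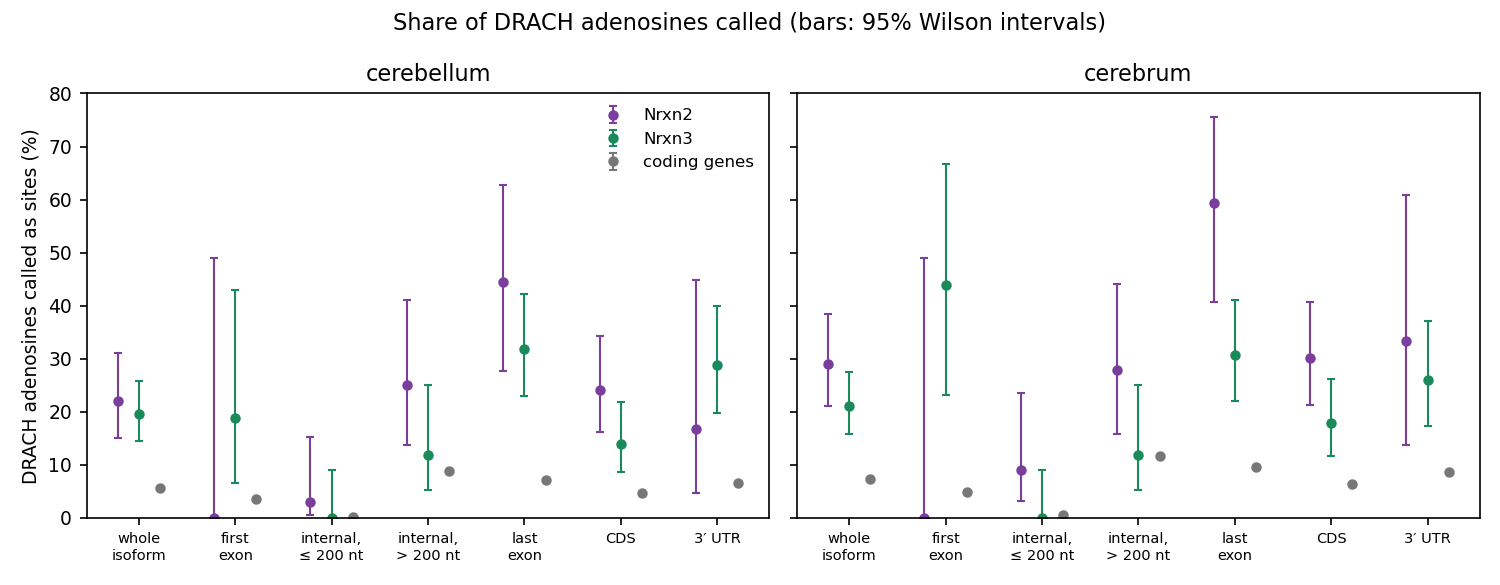
Share of the DRACH adenosines of an isoform that were called as sites (vertical axis, %), for the whole isoform, first, short internal, long internal and last exons, CDS and 3′ UTR, for Nrxn2, Nrxn3 and all coding genes with a site, in the cerebellum (left) and cerebrum (right), with 95% Wilson intervals as bars. Of the classes plotted, and apart from the Nrxn2 first exon with its 4 uncalled adenosines, both neurexins are lowest in short internal exons, and each is highest in the last exon except Nrxn3 in the cerebrum, which is highest in the first exon.

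The first and last exons set the genes apart. The first exon of Nrxn3-205 is 1390 nt long, holds the start codon and carried 5 cerebellum and 16 cerebrum sites, 13 of the 16 in the CDS. All 5 cerebellum sites recurred in the cerebrum. Of the 16, 7 were DRACH. The aligned exon of Nrxn2, exon 2 with 974 nt, has 3 DRACH adenosines against 16 in Nrxn3. None of these 3 was called, and its only sites were 2 outside DRACH in the cerebrum. In the last exon, the coding part of Nrxn2 (881 nt) had 15 DRACH adenosines, of which 10 were called in the cerebellum and 12 in the cerebrum, and the coding part of Nrxn3 (623 nt) also had 15, of which 7 and 8 were called. The 3′ UTR of Nrxn2-205 is 1069 nt long and had 2 and 4 of 12 called, while the 2525 nt of the Nrxn3-205 3′ UTR had 21 and 19 of 73 called. Calls in the Nrxn3 3′ UTR were denser near the stop codon, with 11 of 17 DRACH adenosines called in either library within its first 500 nt (64.7%, 41.3% to 82.7%), 3 of 18 in the next 500 nt (16.7%, 5.84% to 39.2%) and 10 of 38 beyond 1000 nt (26.3%, 15% to 42%).

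**Figure D3:**
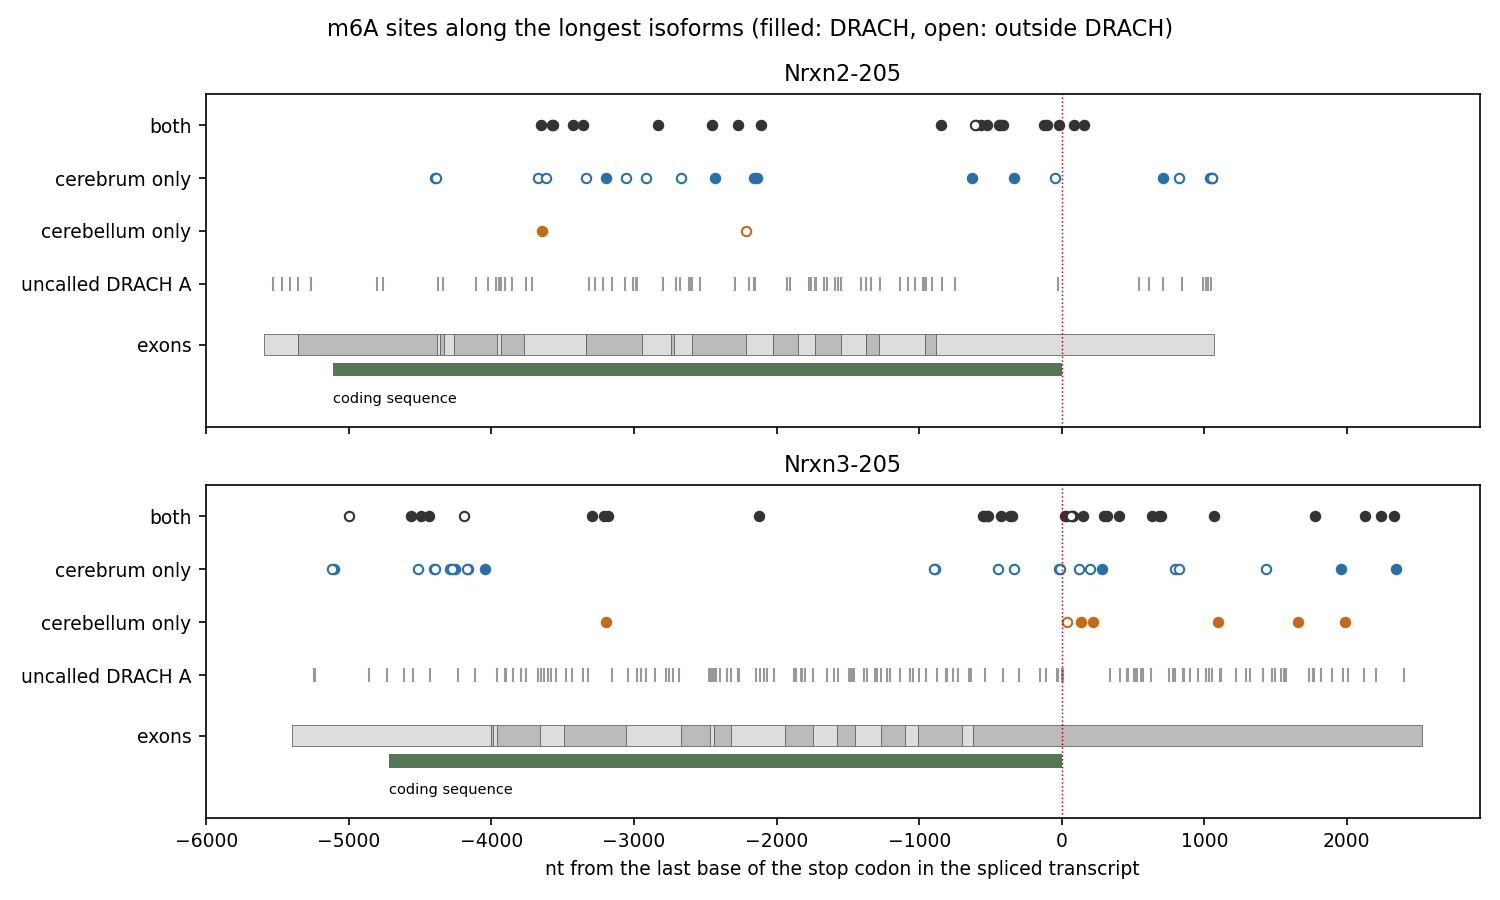
Positions of m6A sites along the spliced isoforms Nrxn2-205 and Nrxn3-205 (horizontal axis, nt from the last base of the stop codon), split into sites of both libraries, of the cerebrum only and of the cerebellum only, with uncalled DRACH adenosines as grey ticks, exons as alternating grey boxes and the coding sequence as a green bar; filled circles are DRACH sites and open circles lie outside DRACH. In Nrxn2 no site lies between exon 15 and the last exon, and the Nrxn3 sites reach 2345 nt past the stop codon.

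Around the stop codon, 5 of the 25 exonic Nrxn2 sites in the cerebellum (20%, 8.86% to 39.1%) and 6 of 44 in the cerebrum (13.6%, 6.4% to 26.7%) lay within 200 nt of its last base. This window holds 6% of the DRACH adenosines of Nrxn2-205. For Nrxn3 the numbers were 8 of 50 (16%, 8.34% to 28.5%) and 10 of 74 (13.5%, 7.51% to 23.1%), against 7.03% of the DRACH adenosines. Counted over the sites on the longest isoform alone, which leaves out the beta first exons, the shares were 20.8% (9.24% to 40.5%) and 14.3% (6.72% to 27.8%) for Nrxn2 and 20% (10.5% to 34.8%) and 17.2% (9.64% to 28.9%) for Nrxn3. Over all coding genes the same base gave 20.1% and 18.7%, within the intervals of both neurexins. The DRACH sites of both libraries that were nearest to the stop codon, 3 in Nrxn2 and 2 in Nrxn3, are shown first, on GRCm38, plus strand, with the 5-mer around the called A in capitals.
Nrxn2 chr19:6532033-6532057: attacatcagTAACTcggcccagag
Nrxn2 chr19:6532117-6532141: agaagaacaaAGACAaagagtatta
Nrxn2 chr19:6532221-6532245: ggggatctggGGACCctctccccgg
Nrxn3 chr12:90332424-90332448: agtcgtatgcGAACTtaaaacagaa
Nrxn3 chr12:90332431-90332455: tgcgaacttaAAACAgaattatttc
The Nrxn2 sites lay 103 and 19 nt before and 85 nt after the last base of the stop codon, so that 2 of them were coding. Both Nrxn3 sites shown were in the 3′ UTR, at 26 and 33 nt.

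Within 100 nt, at most 3 shared DRACH sites of Nrxn2 and 4 of Nrxn3 stood together. In Nrxn2 this was so in exon 9, an internal coding exon of 439 nt, and also in the coding part of the last exon. In Nrxn3 it was so in the coding part and the 3′ UTR of the last exon and in the beta first exon. The stretch nearest the 5′ end of each alpha isoform is shown, since the called adenosines stand close together there.
Nrxn2 chr19:6473424-6473448: tggctgccttGGACCctgtgacctt
Nrxn2 chr19:6473505-6473529: ccatctccctGGACTtcagaaccac
Nrxn2 chr19:6473513-6473537: ctggacttcaGAACCactgagccca
Nrxn3 chr12:90331845-90331869: gggaatccaaGGACTttagacctaa
Nrxn3 chr12:90331852-90331876: caaggactttAGACCtaacaaagtc
Nrxn3 chr12:90331871-90331895: aaagtctcggAAACTagtagaacta
Nrxn3 chr12:90331880-90331904: gaaactagtaGAACTacaaccacct
Exon 9 of Nrxn2 had 8 DRACH adenosines, of which 6 were called in the cerebellum and 5 in the cerebrum, and 5 of them in both. The Nrxn3 stretch lies 553 to 518 nt before the last base of the stop codon. It belongs to the part of the last exon that the isoforms starting at a later acceptor leave out, and 2 of the 4 complete coding isoforms include it.

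The translated reading frames of the isoforms, with 1703 codons in Nrxn2 and 1571 in Nrxn3, shared 67% identical residues over 1569 aligned codons. Of the DRACH adenosines in the CDS, 83 in Nrxn2 and 107 in Nrxn3, only 32 stood at the same codon position of aligned codons in both genes. At these 32 positions, 3 were sites in both genes, 4 in Nrxn2 only, none in Nrxn3 only and 25 in neither, taking the libraries together. In the cerebellum alone 2 positions were sites in both genes and in the cerebrum alone 3. The 3 positions are shown as pairs, Nrxn2 above Nrxn3.
Nrxn2 chr19:6473505-6473529: ccatctccctGGACTtcagaaccac
Nrxn3 chr12:89254861-89254885: ccatttccttTGACTttcgcaccac
Nrxn2 chr19:6531538-6531562: cggacgacgaGGACTtttacactac
Nrxn3 chr12:90331845-90331869: gggaatccaaGGACTttagacctaa
Nrxn2 chr19:6532117-6532141: agaagaacaaAGACAaagagtatta
Nrxn3 chr12:90332379-90332403: agaaaaacaaGGACAaggagtatta
The first pair lies 199 nt into the aligned exons of 439 nt, exon 9 of Nrxn2 and exon 6 of Nrxn3, and was called in both libraries in both genes. Gm37980, annotated on the opposite strand over this exon of Nrxn3, had no site on its own strand. The second pair lies in the coding part of the last exons and was also called in both libraries in both genes. The bases around it differ more between the genes than those of the other pairs. The third pair lies exactly 19 nt before the last base of the stop codon in both genes, in the sequence of the intracellular C-terminal end, which is known to bind PDZ proteins such as CASK. It was a site in both libraries in Nrxn2 and in the cerebrum library only in Nrxn3. Where the other gene had no DRACH at the aligned position, 18 of 47 Nrxn2 adenosines (38.3%, 25.8% to 52.6%) and 17 of 75 Nrxn3 adenosines (22.7%, 14.7% to 33.3%) were sites. Where it had one, 7 of 32 (21.9%, 11% to 38.8%) and 3 of 32 (9.38%, 3.24% to 24.2%) were, with overlapping intervals in each gene.

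By exon, 20 pairs of exons shared at least 5 aligned codons, and 16 of the pairs had the same length in both genes. Called DRACH adenosines were in both exons of 3 pairs, in the Nrxn2 exon only of 3, in the Nrxn3 exon only of 2 and in neither of 12. Besides the last exons, the pairs called in both genes were exons 9 and 6 and exons 14 and 11, which have 382 nt in both genes. In exon 14 of Nrxn2, 2 of 6 DRACH adenosines were called in the cerebellum and 3 in the cerebrum, and in exon 11 of Nrxn3 the same 1 of 9 was called in both. Exons 10 and 7, although 387 and 384 nt long with 9 DRACH adenosines each, had a single called one, in Nrxn2 in the cerebrum. Exons 16 to 22 of Nrxn2, 1143 nt in all, had no site and 22 uncalled DRACH adenosines (0%, up to 14.9%). The aligned exons 13 to 19 of Nrxn3 had 1 of 29 called (3.45%, 0.611% to 17.2%).

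**Figure D4:**
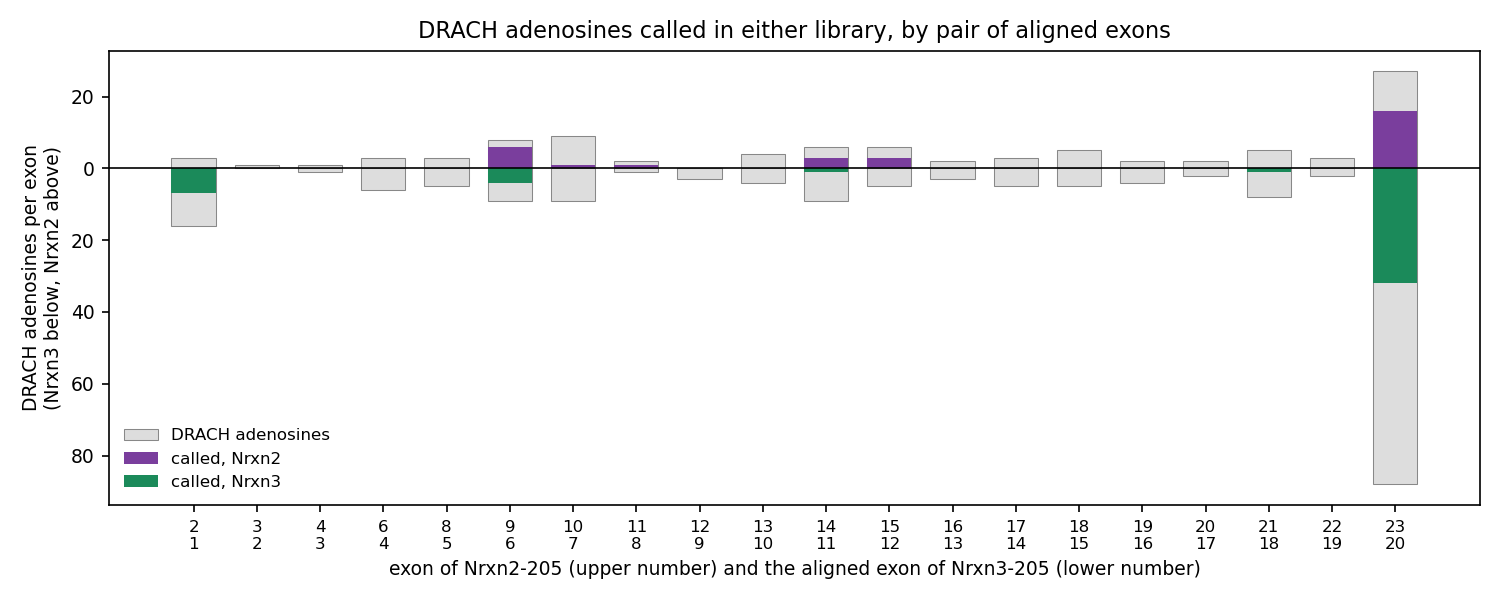
DRACH adenosines (grey) and those called in either library (coloured) in each pair of aligned exons, with Nrxn2-205 above the zero line and Nrxn3-205 below (vertical axis, number per exon). The pair of last exons, 23 and 20, holds most calls in both genes, the pair 2 and 1 only calls in Nrxn3, and 12 of the 20 pairs none.

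Sites also lay in the annotated first exons of the beta isoforms, which the spliced alpha isoforms leave out. Positions alone do not show which transcript carried them. The beta first exon of Nrxn3 (Nrxn3-202, chr12:89812483-89813640, 1158 nt) lies inside an intron of the alpha form and carried 10 cerebellum and 16 cerebrum sites. All 10 cerebellum sites were also cerebrum sites, and each of them lay in the 5′ UTR, which held 14 of the 16. Of its 17 DRACH adenosines, 8 were called in the cerebellum and 10 in the cerebrum, or 58.8% in either (36% to 78.4%). The 5 sites nearest its 5′ end are shown, of which the third was called in the cerebrum only and the others in both libraries.
Nrxn3 chr12:89812679-89812703: aacctattggGAACTcaggacttaa
Nrxn3 chr12:89812686-89812710: tgggaactcaGGACTtaaggcggct
Nrxn3 chr12:89812720-89812744: cgctcatccaGGACActcagggtta
Nrxn3 chr12:89812758-89812782: ccatccacagAGACTcccgggagca
Nrxn3 chr12:89812773-89812797: cccgggagcaGAACTcttccacctg
The beta first exon of Nrxn2 (Nrxn2-202, chr19:6497828-6498531, 704 nt) had only 3 DRACH adenosines. Its 2 sites were both in the 5′ UTR, the first in the cerebrum only and the second in both libraries.
Nrxn2 chr19:6498054-6498078: caggcttcacGGACCttggccttcc
Nrxn2 chr19:6498122-6498146: gcttggctccGGACTgaggctcggg

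The motif at the sites differed between exons and introns. In exons, a DRACH 5-mer stood at 92% of the cerebellum sites of Nrxn2 (75% to 97.8%) and at 70.5% of the cerebrum ones (55.8% to 81.8%). For Nrxn3 the exonic shares were 88% (76.2% to 94.4%) and 66.2% (54.9% to 76%), and for all coding genes 75.1% and 63.4%. Of the exonic sites in both libraries, 22 of 23 in Nrxn2 and 38 of 43 in Nrxn3 were DRACH, compared with 9 of 21 and 11 of 31 of those in the cerebrum library only. All 5 exonic sites of Nrxn3 outside DRACH that were found in both libraries were 1 base away from a DRACH 5-mer, and so was the only such site of Nrxn2, a GGACG. The leading 5-mers were GGACC with 8 and GGACT with 7 exonic sites in Nrxn2, and GAACT with 10 and TGACT with 7 in Nrxn3. Per available adenosine in either library, GGACT was called at 6 of 7 in Nrxn2 (85.7%, 48.7% to 97.4%) and 4 of 8 in Nrxn3 (50%, 21.5% to 78.5%), and GAACT at 7 of 10 in Nrxn3 (70%, 39.7% to 89.2%). Over all coding genes these 5-mers were called at 19.8% and 17.3%. GGACC, at 7 of 19 in Nrxn2 (36.8%, 19.1% to 59%), had no call among the 4 in Nrxn3. Within codons, 55 of the 83 CDS DRACH adenosines of Nrxn2 and 63 of the 107 of Nrxn3 were at position 2, and so were 19 of the 26 called ones and 13 of the 20 called ones.

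Exonic DRACH sites found in the cerebellum library only numbered 1 of 23 in Nrxn2 (4.35%, 0.772% to 21%) and 6 of 44 in Nrxn3 (13.6%, 6.4% to 26.7%), against 16.4% over all coding genes, a share within both intervals. The Nrxn2 site lay in exon 9, next to shared sites. In Nrxn3, 1 lay in exon 6 and 5 in the 3′ UTR, at 135, 219, 1095, 1658 and 1985 nt past the stop codon, and all but the last are shown.
Nrxn2 chr19:6473432-6473456: ttggaccctgTGACCtttgagagtc
Nrxn3 chr12:89254957-89254981: acacaaaagtTGACTtctttgctgt
Nrxn3 chr12:90332533-90332557: atggtgggaaAAACCattttttaaa
Nrxn3 chr12:90332617-90332641: cttggcccgaAGACAgaaaattctc
Nrxn3 chr12:90333493-90333517: ctgtttcaacAGACTgcaagggagt
Nrxn3 chr12:90334056-90334080: accgctttgaGAACTgttatttcct
In the cerebrum library only were 9 of 31 exonic DRACH sites of Nrxn2 (29%, 16.1% to 46.6%) and 11 of 49 of Nrxn3 (22.4%, 13% to 35.9%), against 51.1% over all coding genes.

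The libraries listed similar numbers of exonic DRACH sites at the neurexins. For Nrxn2 the numbers were 23 and 31, a ratio of cerebrum to cerebellum of 1.35, and for Nrxn3 44 and 49, a ratio of 1.11. Neither reached 2 times as many in the cerebrum, while 34.3% of the 3725 coding genes with at least 10 exonic DRACH sites in both libraries together did. Neither had 2 times as many in the cerebellum, which 0.617% of these genes had. The median ratio of these genes was 1.58, and 33.3% of them stood below Nrxn2 and 14.9% below Nrxn3. With introns included the ratios were 1.55 and 1.6, against a median of 1.67. Then 43.9% of genes stood below Nrxn2 and 46.1% below Nrxn3, so the low place of Nrxn3 held for exonic sites only.

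**Figure D5:**
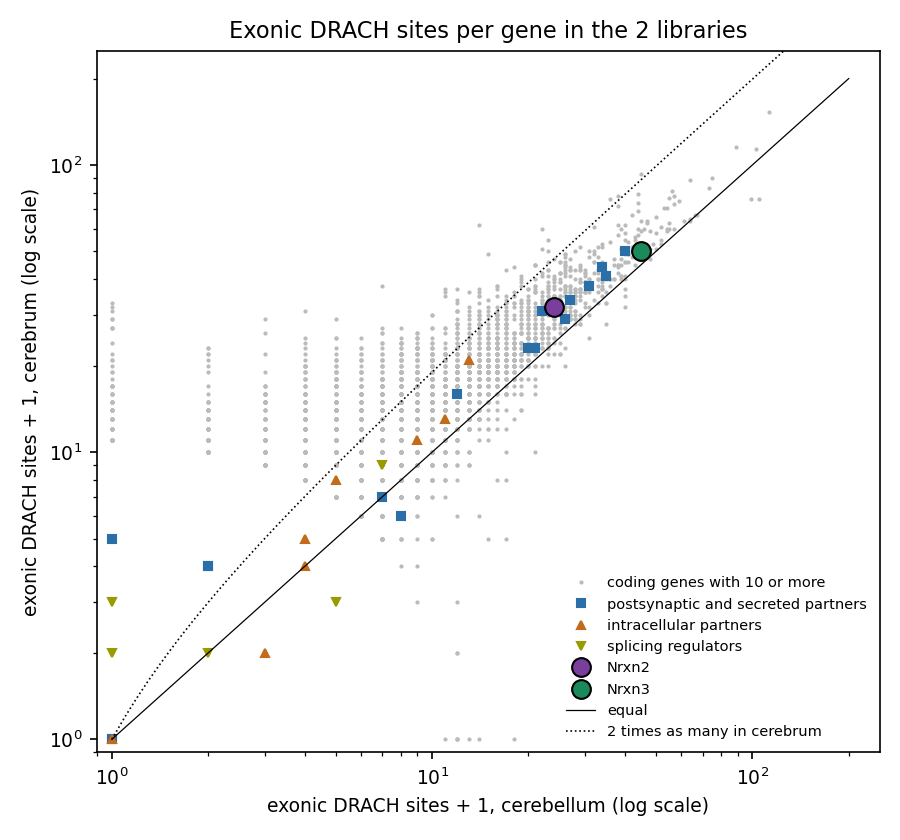
Exonic DRACH sites plus 1 per gene in the cerebellum library (horizontal, log scale) and the cerebrum library (vertical, log scale) for coding genes with at least 10 such sites in both libraries together (grey), partner genes of the neurexins, splicing regulators, Nrxn2 and Nrxn3. The solid line marks equal numbers and the dotted line 2 times as many in the cerebrum; both neurexins lie between the lines.

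Introns of Nrxn2 held 11 cerebellum and 32 cerebrum sites, and those of Nrxn3 held 105 and 470. In Nrxn3 these were nearly all outside DRACH and nearly all in 1 library. DRACH accounted for 7.62% of its intronic cerebellum sites (3.91% to 14.3%) and 7.23% of its intronic cerebrum sites (5.22% to 9.94%), against 26.7% and 20% over the introns of all coding genes. In both libraries were 7 intronic positions of Nrxn3, or 6.67% of the cerebellum ones (3.27% to 13.1%) and 1.49% of the cerebrum ones (0.723% to 3.04%), against 16.1% and 4.74% over all coding genes. Intronic sites outside DRACH were shared at 6.19% (2.87% to 12.8%) and 1.38% (0.632% to 2.97%) in Nrxn3 and at 7.87% and 2.21% over all coding genes, within the intervals of Nrxn3. Introns 3 and 14, the longest with 337 and 443 kb, held 382 of the 563 sites within the introns of Nrxn3-205 (67.9%) and 50.9% of their length. Genes annotated on the same strand inside Nrxn3, Gm48692 and Gm48700, cover 4 and 6 of its sites. Relative to length, the Nrxn3 introns had 6.55 sites per 100 kb in the cerebellum and 29.3 in the cerebrum. The introns of Nrxn2, a gene of 125 kb against the 1612 kb of Nrxn3, had 9.46 and 27.5. The genes therefore differed far less by this measure than by number. Among coding genes of at least 500 kb with a site, the density of Nrxn3 ranked 33 of 195 and 19 of 211, with medians of 2.01 and 5.51. Neighbouring intronic sites of Nrxn3 lay exactly 6 nt apart in 7 cases in the cerebellum and 13 in the cerebrum, while gaps of 4, 5, 7 or 8 nt came to 0 and 2. Over all coding genes, 776 neighbouring pairs of intronic sites were 6 nt apart in the cerebellum and 1336 in the cerebrum, against 47 and 151 at 5 nt and 53 and 174 at 7 nt. The only pair of Nrxn3 intronic sites less than 2 kb apart that was found in both libraries was of this kind, in intron 4.
Nrxn3 chr12:89191893-89191917: ccctctacccCAATCtccatcctcc
Nrxn3 chr12:89191899-89191923: accccaatctCCATCctcctctcat

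Nrxn2 showed the reverse in its intron 6. Within chr19:6457819-6459574 it had 9 sites, of which 7 were in both libraries and 7 were DRACH, and only 1 other intronic site of the gene was in both libraries. The cluster was singled out after its sites were seen. These 9 sites lie under AC167245.1, a gene of unconfirmed type annotated on the opposite strand, which had no site on its own strand. The DRACH sites found in both libraries are shown.
Nrxn2 chr19:6458081-6458105: gtgttttctgAGACTttcaagagaa
Nrxn2 chr19:6458161-6458185: ccaatgtctgGAACTcttggattgt
Nrxn2 chr19:6458880-6458904: ttttaatcctAGACTcactcaattt
Nrxn2 chr19:6458970-6458994: ccaaattgaaAGACAaactggctac
Nrxn2 chr19:6459041-6459065: ttctcagtacAGACActttcagatt
Both libraries also listed GGATT sites there, at chr19:6457819 and chr19:6458181. A smaller group of 5 Nrxn3 sites, all DRACH and 3 of them in both libraries, lay just upstream of the last exon of Nrxn3-205, in the longer last exon of the transcripts Nrxn3-208 and Nrxn3-213, which have no complete coding sequence.

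At 739 of the 741 sites GRCm38 had A on the gene's strand. The exceptions were intronic sites of Nrxn3, 1 in the cerebrum library and 1 in the cerebellum library, where the C57 reference has G. The authors also called sites on a genome with the PWK bases, so that an A of the PWK allele can be listed, but no variant table was used here to look for one.
Nrxn3 chr12:89447553-89447577: atgagtgctgAAGCCctcgtagctc
Nrxn3 chr12:89611548-89611572: cctacattccTAGTCatagagcatc

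Among genes whose products work with neurexins, the extracellular partners carried most exonic DRACH sites. Of 17 postsynaptic and secreted partners, 14 had such a site in the cerebellum and 15 in the cerebrum, with a median of 19 and 22 sites per gene against 2 and 3 over all coding genes with a site. By these medians, most coding genes with a site also had an exonic DRACH site. Having one is therefore not particular to the partner genes, and the exact share was not computed. The medians of the gene lists also count listed genes without any site, which the medians over all coding genes leave out. Neuroligin genes, which encode the classical postsynaptic receptors, had 33 and 43 (Nlgn1), 19 and 22 (Nlgn2) and 39 and 49 (Nlgn3) in the cerebellum and cerebrum. Nxph1, for a secreted neurexophilin that binds alpha-neurexins, had 30 and 37, and 46.2% and 55.4% of the DRACH adenosines of its longest isoform were called. Cbln1, for the cerebellin that bridges neurexins to a glutamate receptor in the cerebellum, had 11 in the cerebellum and 15 in the cerebrum. Lrrtm1 and C1ql2 had no exonic DRACH site in either library. Of 8 intracellular partners, 7 had an exonic DRACH site in each library, with medians of 3.5 and 5.5, and Cask had 3 and 4. Of 5 splicing regulators of neurexin transcripts, 3 had one in the cerebellum and all 5 in the cerebrum, with medians of 1 and 2. None of the 12, 4 and 1 genes of these lists with at least 10 sites had 2 times as many in the cerebrum. Over all 3725 coding genes with at least 10 such sites, 34.3% did.

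The split of DRACH sites over 5′ UTR, CDS, 3′ UTR and introns in both libraries makes 8 shares per gene. It was compared with that of 2046 coding genes with at least 20 DRACH sites in both libraries together. Closest to Nrxn2 were Pcdh7 (Euclidean distance 0.126), Mgat4c (0.156) and Map2 (0.163), and closest to Nrxn3 were Kcnd2 (0.111), Auts2 (0.169) and Nxph1 (0.232). The neurexins stood 0.665 apart. Nrxn3 ranked 828 in likeness to Nrxn2, and Nrxn2 ranked 526 in likeness to Nrxn3.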

How the data were processed

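GLORI sites of 1 cerebellum and 1 cerebrum library were analysed. The deposited tables hold another kind of unit, the position of each site, without a rate, count or score. The authors ran GLORI-tools 1.0 against mm10 and against a copy carrying PWK bases, merged both call sets of a library, and required a rate above 0.1 and reads above 8. This filter drops weakly methylated and thinly read adenosines. The name of the cerebrum table carries the study's cerebellum abbreviation, and tissues were taken from the sample records.

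Sites were placed on GENCODE M21 gene models, a release other than the one the study names. A region is that of the longest complete coding isoform covering the site. Site 5-mers were read from GRCm38, and DRACH adenosines from the spliced isoform. Reading frames were aligned globally (Biopython 1.88, BLOSUM62). Only the called share of DRACH adenosines by 5′ UTR, CDS and 3′ UTR was tested on simulated sites. Members, lists and named sites (nearest the stop codon, first densest 100 nt, aligned in both genes, beta first exons, cerebellum only, no A in GRCm38) were chosen with earlier results of these data known. Other neurexin genes were not analysed here, and 1 further site sequence is not reported here.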

Additional observations from a re-analysis of the deposited data

How the results depend on the processing

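Of 53 values recomputed under the alternatives, 43 stayed within the interval of the value given or, for counts, within 1.5 times of it. These include the 12 values with the principal isoform, which is also the longest in both genes and so changed little by construction. They also include those with DRACH sites only, sites within 1 nt, all coding isoforms and 400 nt around the stop codon. Those with a minimum of 5 sites and with introns in the ratio stayed within 1.5 times. The minimum only chooses the genes compared, so it could not change the ratio of either neurexin. With it, the share of genes with 2 times as many in the cerebrum rose from 34.3% to 42.1%. Introns moved the ratio of Nrxn3 from 1.11 to 1.6 and the share of genes below it from 14.9% to 46.1%. The DRACH share depended on what was counted. On coding exons alone it rose to 92% and 70.5% for Nrxn2 and to 88% and 66.2% for Nrxn3 in the cerebellum and cerebrum, against 76.3%, 55.6%, 34.8% and 16% over the whole gene intervals, by leaving out introns. With 5-mers 1 base from DRACH counted too it was 70.4% for Nrxn2 in the cerebrum, 58.2% for Nrxn3 in the cerebellum and 47% for Nrxn3 in the cerebrum. Allowing 1 aligned codon between the genes, the called positions in both rose from 2 to 4 in the cerebellum, from 3 to 5 in the cerebrum and from 3 to 5 in either library. No paired analysis was possible because each tissue had 1 library. Depth could not be weighed, since the files give neither reads nor rates.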
